A study of Mus musculus with 8 samples.

Results

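A group of 10 genes of extracellular proteolysis was followed across every array of the series: the matrix metalloproteinases Mmp2, Mmp8, Mmp9, Mmp12, Mmp13 and Mmp14, the membrane metalloproteinase-disintegrin Adam8, and the tissue inhibitors of metalloproteinases Timp1, Timp2 and Timp3. They were chosen by symbol, through the RefSeq accession that the array gives for each probe, and are 10 of 36754 genes named on the array, read by 12 probes. The cells were primary microglia, the resident macrophages of the brain, from C57BL/6 mice, and all were exposed for 3 h. The question was how such cells react to pieces of Ecrg4, a protein that is secreted as a precursor. The 4 treatments were 20 µg/ml of Ecrg4(71-132) fused to an antibody Fc fragment, 20 µg/ml of Ecrg4(133-148) fused to Fc, 20 µg/ml of Fc alone, and PBS, so that Fc was shared by both fragments and their carrier control. Each treatment had 2 arrays, which the labels number as set 2 and set 1. The labels say neither what a set is nor whether its cells came from separate cultures or animals, and they give no age of the mice, so the p-values measure only the spread between these samples.

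Matrix metalloproteinases are zinc-dependent enzymes that are made as inactive precursors and, once activated, cut collagens, gelatin, elastin and other parts of the extracellular matrix, as well as cytokines and receptors at the cell surface. The TIMP proteins bind the active site and block it, and the inhibitors are themselves regulated genes. Macrophages and microglia are known to switch several of these enzymes on when activated, and many of their promoters carry a site for the transcription factor AP-1 close to the start of transcription.

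On GRCm38.p6 the genes of 3 secreted enzymes lie close together on chromosome 9: Mmp13 at chr9:7272514-7283333, Mmp12 at chr9:7344397-7360461 and Mmp8 at chr9:7558429-7568486. Mmp9 lies at chr2:164940326-164955850, Mmp2 at chr8:92827290-92853421, Mmp14 at chr14:54431598-54442456 and Adam8 at chr7:139978932-139995207. The inhibitor genes lie at chrX:20870166-20874737 (Timp1), chr11:118301061-118355411 (Timp2) and chr10:86300412-86349505 (Timp3). These are gene positions from RefSeq, not positions of the probes.

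The start regions of Mmp13 and Mmp12 are shown because they were the only windows of these genes, of 9 read, with a letter match to the AP-1 site, and because their transcripts moved differently on these arrays. Windows of 300 bases around gene starts (250 bases before the start and 50 after it) were taken from RefSeq on GRCm38.p6, which holds 9 windows for 8 of the 10 genes. Mmp2 and Mmp9 had no entry. Mmp13 and this Mmp12 window lie on chromosome 9, on the plus strand, at chr9:7272264-7272563 for Mmp13 and at chr9:7347124-7347423 for the second of the 2 Mmp12 starts, and the capitals mark the AP-1 match.
Mmp13: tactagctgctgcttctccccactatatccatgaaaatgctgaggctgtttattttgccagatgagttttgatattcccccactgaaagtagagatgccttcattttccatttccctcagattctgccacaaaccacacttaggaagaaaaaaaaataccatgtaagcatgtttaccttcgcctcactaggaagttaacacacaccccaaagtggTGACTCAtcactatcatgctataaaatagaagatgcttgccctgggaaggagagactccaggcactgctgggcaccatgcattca
Mmp12: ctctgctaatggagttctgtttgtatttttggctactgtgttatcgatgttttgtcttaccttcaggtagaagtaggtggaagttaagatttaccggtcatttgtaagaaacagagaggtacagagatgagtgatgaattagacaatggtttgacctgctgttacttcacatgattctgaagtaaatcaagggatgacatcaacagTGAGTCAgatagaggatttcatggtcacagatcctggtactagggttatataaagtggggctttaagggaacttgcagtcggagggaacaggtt
The AP-1 letters searched were TGANTCA on both strands. They stood 35 to 29 bases before the Mmp13 start as TGACTCA, and 44 to 38 bases before the Mmp12 start as TGAGTCA. They were found in 2 of the 9 windows, against 7.81% of all 32851 windows of the same length. TATAAA on either strand was in 3 of the 9 windows (Mmp12, Mmp13 and Mmp8), against 13.6% of all windows. AGGAAG, the PEA3 site of the ETS factors, was in 6 of the 9, against 35.4%. The NF-kB site was in 0 of the 9, against 4.51%. These are matches of letters within a window and no measure of binding.

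Values below are log2 signals of 1 probe, with the 75th percentile of each array's probes set at 0, so that a difference of 1 is a 2-fold difference. They compare arrays for 1 probe and do not rank genes against each other. On each array 24213 to 29439 probes exceeded the background well, and no probe was saturated. Arrays of 1 set resembled each other more than duplicates did: across genes, arrays correlated at 0.975 to 0.990 within set 2 and at 0.994 to 0.997 within set 1, but duplicates of a treatment at 0.954 to 0.962. Each result on the treatments is therefore given within each set beside the mean.

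**Figure D1:**
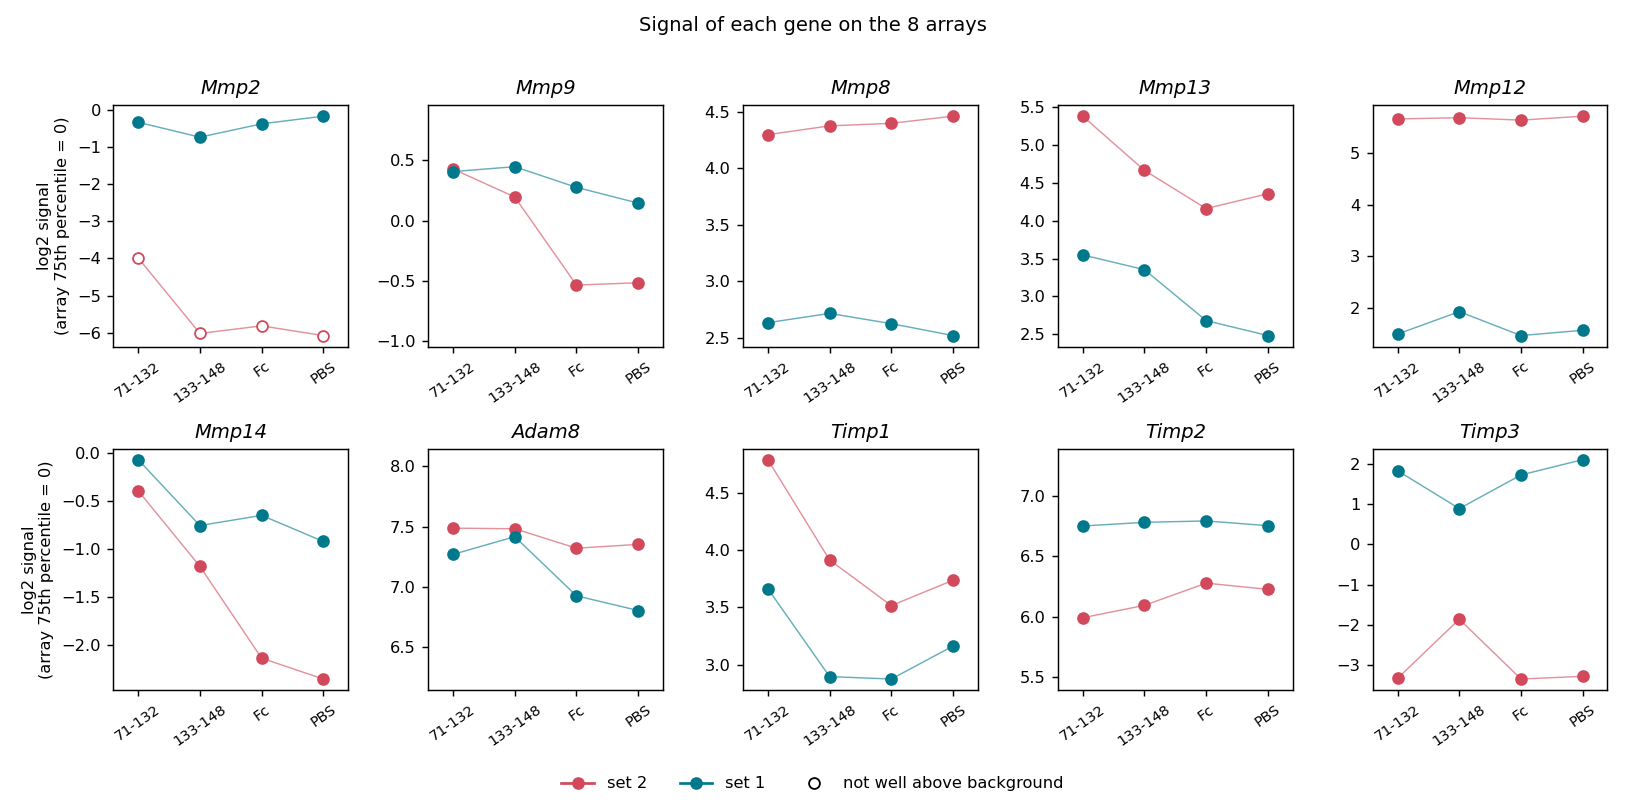
Log2 signal (array 75th percentile at 0) of the 10 genes on each of the 8 arrays, with treatments along the x axis and set 2 and set 1 as separate points; open points were not well above background. Mmp12 and Mmp8 lay apart by set with little spread among treatments, Mmp13 and Timp1 lay above the controls with Ecrg4(71-132) in both sets, and Mmp2 was not well above background on any set 2 array.

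The enzymes and their inhibitors differed between the sets in both directions. Set 2 had more transcript of the macrophage elastase Mmp12 and the collagenases Mmp8 and Mmp13, and less of the gelatinase Mmp2 and of the inhibitors Timp2 and Timp3, with no overlap between the sets for these 6 genes. Timp1 and Adam8 also passed the test as higher in set 2, and Mmp14 as lower. In limma with treatment as a block, 9 of the 10 genes passed an adjusted p of 0.05, 5 of them higher and 4 lower in set 2, and all 10 had an unadjusted p under 0.05. Mmp2 entered this test through set 1 alone, which fixed its direction. Over all 19539 genes tested, 62.2% passed (34.9% higher and 27.3% lower) and 67% had an unadjusted p under 0.05, so a call between the sets was common on these arrays. All arrays were on 1 slide with each set in a column of its own, so set and column cannot be told apart. The median difference over all genes was 0.07. With each array scaled to its median instead, that median moved to -0.05, and the share of called genes that were higher in set 2 was 43.6%, against 56.1% with the 75th percentile.

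Mmp12, which cuts elastin and is typical of activated macrophages, had the largest rise of the 10 genes in set 2. With Ecrg4(71-132), Ecrg4(133-148), Fc and PBS, its signal was 5.66, 5.69, 5.64 and 5.72 in set 2, against 1.496, 1.93, 1.47 and 1.57 in set 1. All 4 arrays of set 2 lay close together (SD 0.03, against 0.21 in set 1) and above every array of set 1. The difference was 4.06 (SE 0.09, 95% interval 3.82 to 4.30, adjusted p in limma 5.95e-05). A second Mmp12 probe, well above background on the 8 arrays, gave 4.59.

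Mmp8, the collagenase first described in neutrophils, and Mmp13, the main interstitial collagenase of the mouse, were also higher in set 2 on every array. Mmp8 stood at 4.30, 4.38, 4.40 and 4.46 in set 2, in the same order of treatments, against 2.63, 2.71, 2.62 and 2.52 in set 1, a difference of 1.76 (SE 0.07, adjusted p in limma 0.000127). Mmp13 stood at 5.38, 4.67, 4.16 and 4.36 in set 2, against 3.55, 3.35, 2.68 and 2.48 in set 1, a difference of 1.63 (SE 0.12, adjusted p in limma 0.000529). Both genes kept the sets apart, but Mmp8 varied little among treatments, with an SD of 0.07 in set 2 and 0.08 in set 1 (n = 4 each), while Mmp13 varied with an SD of 0.54 in set 2 and 0.52 in set 1. A difference of more than 1 on the log2 scale that also passed the test was seen for Mmp12, Mmp13 and Mmp8 upwards and for Mmp2 and Timp3 downwards, 5 of the 10 genes, against 19.4% of all genes.

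Mmp2, the gelatinase that stromal cells make constitutively, was measured well above background in set 1 only. Its signal was -3.99, -6.02, -5.82 and -6.08 in set 2, where it was not well above background on any of the 4 arrays, against -0.34, -0.74, -0.38 and -0.18 in set 1. The value in set 2 is a bound, so Mmp2 was at least 11.5-fold lower in set 2 (adjusted p in limma 0.000656), and it passed the filter on low signal only through set 1. Mmp14, the membrane-bound enzyme that activates the Mmp2 precursor, was lower in set 2 by less: -0.40, -1.18, -2.14 and -2.36 in set 2, against -0.07, -0.76, -0.65 and -0.92 in set 1. The Mmp14 ranges overlapped, and the set difference was -0.32 and -0.42 with Ecrg4(71-132) and Ecrg4(133-148) but -1.49 and -1.43 with Fc and PBS. The mean set difference was -0.92 (SE 0.26, adjusted p in limma 0.0321).

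The other gelatinase, Mmp9, did not pass the test between the sets. Its signal was 0.43, 0.20, -0.53 and -0.52 in set 2, against 0.41, 0.45, 0.28 and 0.14 in set 1, a difference of -0.42 (SE 0.16, adjusted p in limma 0.0715). The fragment arrays of the sets lay close together for Mmp9, and the control arrays were lower in set 2. Adam8, a sheddase of leukocytes that is induced in activated microglia, stood at 7.49, 7.48, 7.32 and 7.35 in set 2, against 7.27, 7.42, 6.93 and 6.80 in set 1, a difference of 0.31 (SE 0.09, adjusted p in limma 0.0419). The ranges of Adam8 overlapped at the Ecrg4(133-148) array of set 1, which lay above both control arrays of set 2.

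The 3 inhibitors went different ways. Timp3, which is bound to the matrix and also blocks ADAM sheddases, was -3.33, -1.86, -3.34 and -3.28 in set 2, against 1.83, 0.89, 1.73 and 2.11 in set 1, and was well above background on the 8 arrays. Its difference was -4.59 (SE 0.50, adjusted p in limma 0.00165), and it was smallest with Ecrg4(133-148) at -2.75, against -5.16 with Ecrg4(71-132), -5.07 with Fc and -5.38 with PBS. Timp2, which blocks Mmp2 but also helps Mmp14 to activate it, was 5.99, 6.09, 6.28 and 6.23 in set 2, against 6.75, 6.78, 6.79 and 6.75 in set 1. That is a difference of -0.62 (SE 0.06, adjusted p in limma 0.00137), and a second Timp2 probe gave -0.64. Timp1, the inhibitor that inflammatory stimuli induce, was 4.79, 3.91, 3.51 and 3.74 in set 2, against 3.66, 2.89, 2.87 and 3.16 in set 1, a difference of 0.84 (SE 0.12, adjusted p in limma 0.00359). The Timp1 ranges overlapped only at the Ecrg4(71-132) array of set 1, which lay above the Fc array of set 2.

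Without overlap, 3 of the 10 genes were above on every set 2 array, against 32.9% of all genes, and 3 were below, against 25.7%. The calls of Adam8, Mmp14 and Mmp9 depended on single arrays, and those of Adam8 and Mmp9 also on the scaling. Leaving out the Fc or the PBS array of either set gave an adjusted p in limma of 0.0940 to 0.102 for Mmp14 and 0.108 to 0.136 for Adam8, and leaving out either Ecrg4(71-132) array ended the call of Adam8 and made that of Mmp9. With quantile scaling Adam8 had an adjusted p of 0.154 in limma, and with median scaling 0.202, where Mmp9 passed at 0.0228.

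**Figure D2:**
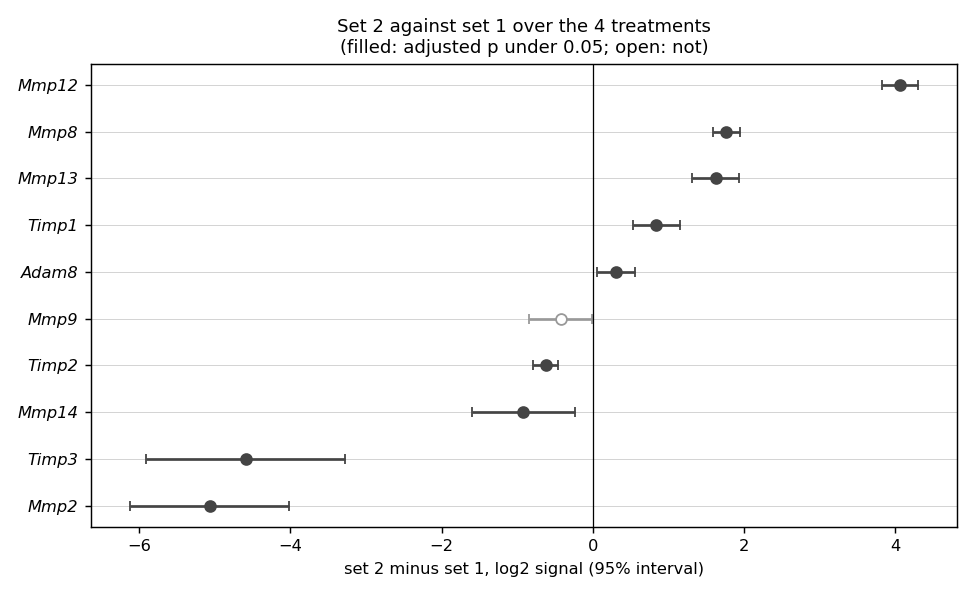
Difference in log2 signal, set 2 minus set 1, of the 10 genes: points are the fitted means over the 4 treatments and bars the 95% intervals from limma, filled where the adjusted p was under 0.05. Mmp12 stood at 4.06 and Timp3 at -4.59, Mmp9 did not pass, and the Mmp2 point is as measured, with its set 2 signal not well above background.

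Markers of other cell types moved with the set. On the arrays of Ecrg4(71-132), Ecrg4(133-148), Fc and PBS, 4, 3, 1 and 1 of the 9 fibroblast or pericyte markers were well above background in set 2, against 8, 7, 9 and 9 in set 1, and their summed level was between -1.04 and 0.07 in set 2 and between 4.59 and 5.70 in set 1, as log2. The collagen gene Col1a2, well above background on the 8 arrays, differed by -6.14. Limma called all 7 tested markers of that list lower in set 2, against 27.3% of all genes. Col3a1, Lum and Fbln1 entered the test through set 1 alone, with no set 2 array well above background, which fixed their direction. Col1a1, Dcn and Pdgfra, well above background on 1, 2 and 1 set 2 arrays, also entered through set 1 alone, which favoured this direction. Of the 10 astrocyte markers, 3 to 7 were well above background in set 2 and 9 to 10 in set 1, and 7 of the 9 tested were called lower. All of these but Fgfr3 entered through set 1 alone (Gja1, Gfap, Aqp4, Slc1a2, Slc1a3 and S100b), which favoured that direction. The growth factor receptor gene Fgfr3, well above background on the 8 arrays, differed by -2.52, and Gfap, the astrocyte filament protein, was well above background on 1 of the 4 set 2 arrays. Their summed level, 6.18 to 6.26 in set 2 and 4.92 to 5.46 in set 1, went the other way, and Aldoc, at 1.56, was one of the 2 called higher.

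The microglial markers themselves also differed. Of 10, 8 to 9 were well above background in set 2 and 10 in set 1. Limma called 2 higher and 7 lower in set 2, against 34.9% and 27.3% of all genes. Sall1 and Tmem119, among those lower, entered through set 1 alone. Csf1r, the receptor on which microglia depend, did not pass the test, with a difference of -0.01, while the chemokine receptor Cx3cr1 differed by -6.62 and the integrin Itgam by 0.66. Of the neutrophil markers on the array, 3 to 4 of 8 were well above background in set 2 and 4 in set 1. Mpo, Ltf and Retnlg were not so on any array, and S100a8, Elane and Camp were so on the 8 arrays. Of the 4 tested, 1 was called higher and 1 lower, against the same shares, and Camp had the largest rise at 1.08. The lower one was S100a9, at -2.33, which entered through set 1 alone. No set 2 array had S100a9 well above background, which fixed its direction. Of the oligodendrocyte markers tested, 3 of 6 were called higher and 2 lower, of the endothelial markers 1 of 3 and 1, and of the neuronal markers 1 of 2 and 1. The lower calls of Mobp, Cdh5 and Tubb3 among these came from genes that entered through set 1 alone. In these bulk samples fewer cells of a type and less RNA per cell cannot be told apart. The part of these cell types in the set differences of Mmp2, Timp3, Mmp14 or Mmp8 was not tested.

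**Figure D3:**
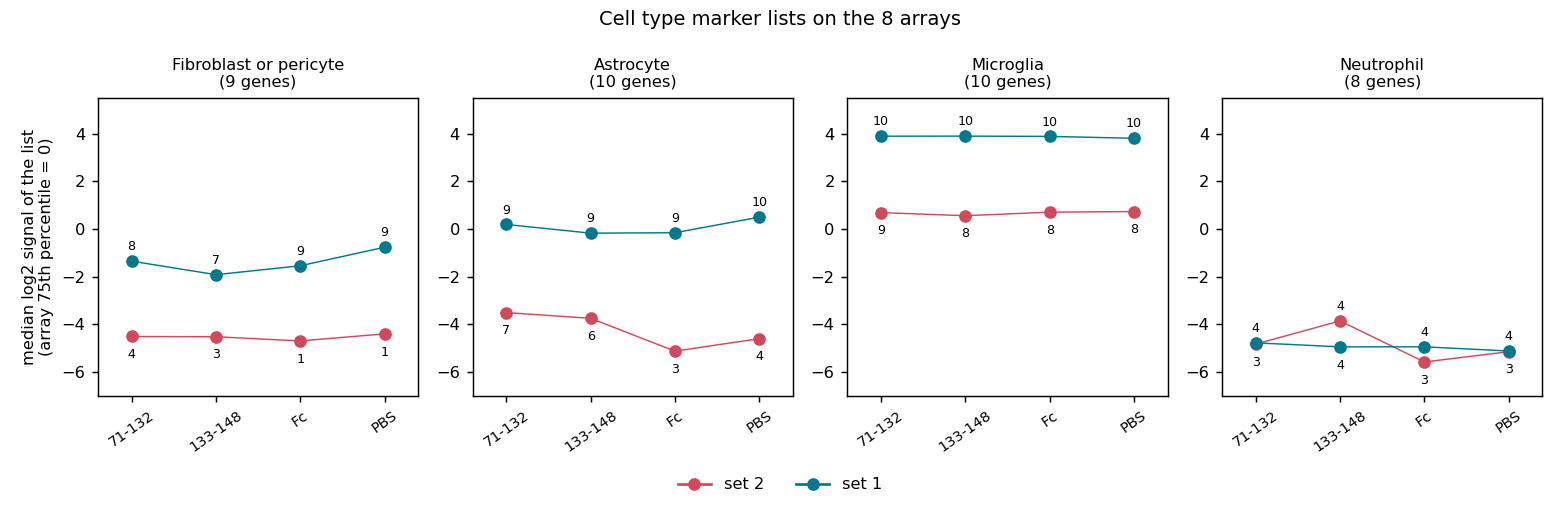
Median log2 signal (array 75th percentile at 0) of 4 lists of cell type markers on each array, for set 2 and set 1, with the number of markers well above background written beside each point. The fibroblast or pericyte, astrocyte and microglial medians were lower on every set 2 array, and the neutrophil medians overlapped.

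The response to both fragments was then set against both controls with the set in the model. Mmp9, Mmp13 and Adam8 were higher on each fragment array than on each control array within both sets, and Mmp14 had the largest mean difference, but none of the 10 genes passed the adjusted threshold. In limma, 74 of 21535 genes passed (0.344%). At an unadjusted p under 0.05, 4 of the 10 genes passed, against 25.5% of all genes. The median difference over the 10 genes was 0.33, against -0.01 over all genes. Being above on all fragment arrays within both sets held for 3 of the 10 genes and for 13.6% of all genes, and being below for 0 of the 10 and for 11.3%.

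Mmp9 had the smallest adjusted p of the 10. Its mean over the fragment arrays was 0.31 in set 2, against -0.53 over the control arrays, and 0.43 in set 1, against 0.21. The pooled difference was 0.53 (SE 0.07, adjusted p in limma 0.0698), and the response was 0.62 larger in set 2 (adjusted p of the interaction in limma 0.407). Mmp13 differed by 0.77 in set 2 and 0.87 in set 1, with a pooled difference of 0.82 (SE 0.17, adjusted p in limma 0.104). Of the genes with a pooled difference above 0.5, Mmp13 was the one with nearly the same size in both sets.

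Mmp14 differed by 1.46 in set 2 and 0.37 in set 1, with a pooled difference of 0.92 (SE 0.24, adjusted p in limma 0.118). In set 1 its Ecrg4(133-148) array lay below the Fc array. Adam8 differed by 0.15 in set 2 and 0.48 in set 1, with a pooled difference of 0.31 (SE 0.055, adjusted p in limma 0.0917). Timp1 differed by 0.73 in set 2 and 0.26 in set 1 (0.49 pooled, SE 0.26, adjusted p in limma 0.304), and its Ecrg4(133-148) array of set 1 lay below the PBS array. Timp3 went in opposite directions, 0.72 in set 2 and -0.55 in set 1, and Timp2 differed by -0.21 in set 2 and -0.01 in set 1 on its brightest probe. The second Timp2 probe went the other way, above both controls with both fragments in both sets. With Ecrg4(71-132), Ecrg4(133-148), Fc and PBS it read 3.61, 3.38, 3.32 and 3.37 in set 2, and 4.11, 4.15, 3.96 and 4.03 in set 1. Mmp12 and Mmp8, which parted the sets most cleanly, differed by 0.00 and -0.09 in set 2 and by 0.20 and 0.10 in set 1. Of the response differences between the sets, none of the 10 passed the adjusted threshold in limma (Mmp9 and Adam8 passed an unadjusted p under 0.05, against 7.92% of all genes). Without the set 2 array of Ecrg4(133-148), the response difference of Mmp2 was 2.22. That value rests on 1 fragment array in set 2, where no Mmp2 signal was well above background. With all 8 arrays, 0.172% of all genes passed, 0.0464% higher and 0.125% lower. Of the 37 genes called there, 27% were higher, and with quantile scaling 37.8% of 45.

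These pooled values depended on single arrays. Without the set 2 array of Ecrg4(133-148), the adjusted p in limma was 0.0112 for Mmp9, 0.0119 for Mmp13, 0.0351 for Mmp14, 0.0427 for Adam8 and 0.0291 for Mmp2, and 3943 of all genes were called. With any 1 of the other arrays left out, 136 to 600 genes were called. Without the set 2 array of Ecrg4(71-132), Mmp9 passed at 0.0315. The pooled difference of Mmp2 was 0.34 (SE 0.45, adjusted p in limma 0.666), and it was -0.17 without the set 2 array of Ecrg4(71-132), where its signal of -3.99 was not well above background. On that array 4 of the 9 fibroblast or pericyte markers lay above the Fc array of the set and 5 below it (median difference -0.22), with Pdgfrb at -0.95, against -6.00 with Fc. The part of those cells was not tested.

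Each fragment was compared with Fc, its carrier control. Ecrg4(71-132) gave higher values than Fc in both sets for 7 of the 9 genes tested and lower for 1, with the largest differences for Mmp14, Mmp13 and Timp1, but no gene passed the test. Without the set in the model, limma called 0 of 19117 genes (0%), and 643 genes, or 3.36%, had an unadjusted p under 0.05, none of them among the 9. Being higher in both sets held for 28.5% of all genes, and being lower for 36.4%. The median difference was 0.26 over the 9 genes and -0.02 over all genes. Mmp2 failed the filter on low signal here.

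Mmp14 differed by 1.74 in set 2 and 0.58 in set 1, a mean of 1.16 (SE 0.66). Mmp13 differed by 1.22 in set 2 and 0.87 in set 1, a mean of 1.05 (SE 1.01). Timp1 differed by 1.27 in set 2 and 0.79 in set 1, a mean of 1.03 (SE 0.54). For these 3 genes the Ecrg4(71-132) array was above both control arrays of its own set in both sets. Mmp9 differed by 0.96 in set 2 and 0.13 in set 1, and Adam8 by 0.17 in set 2 and 0.34 in set 1. Mmp12, Mmp8, Timp2 and Timp3 differed by no more than 0.29 in either set, in either direction, on the brightest probe of each gene. The second Mmp12 probe read -3.25 with Ecrg4(71-132) and -2.65 with Fc in set 1, and 1.92 and 1.82 in set 2. The second Timp2 probe lay above Fc in both sets, while the brightest lay below it. All adjusted p-values in limma were 1 after rounding, and the SEs hold the difference between the sets.

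With the set as a block, the duplicates being paired by their set number, limma still called 0 genes, and the lowest adjusted p of any gene was 0.178. The SE of the Mmp13 difference was then 0.17 (unadjusted p 0.00203, adjusted p in limma 0.206), that of Timp1 0.17 (unadjusted p 0.00213, adjusted p 0.206) and that of Mmp14 0.36 (unadjusted p 0.0272, adjusted p 0.235). These 3 of the 9 genes were below an unadjusted 0.05 in that fit, but the share of all genes below it there is not reported here. The 3.36% of all genes belongs to the fit without the set and cannot be set against this count.

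Ecrg4(133-148) gave higher values than Fc in both sets for 5 of the 9 genes, against 28.5% of all genes, and lower for 1, against 30.6%. The gene that was lower was Timp2, whose second probe lay above Fc in both sets. Limma called 0 of 19117 genes (0%), and 88 genes, or 0.46%, passed an unadjusted 0.05, none of them among the 9. Mmp13 differed by 0.51 in set 2 and 0.67 in set 1, a mean of 0.59 (SE 1.01). Mmp9 differed by 0.73 in set 2 and 0.17 in set 1, and Adam8 by 0.16 in set 2 and 0.49 in set 1. Mmp14 differed by 0.96 in set 2 but -0.11 in set 1, and Timp1 by 0.40 in set 2 and 0.02 in set 1. Timp3 differed by 1.49 in set 2 and -0.84 in set 1. Of the 10 astrocyte markers, 4 lay above Fc and 6 below it on the set 2 array of Ecrg4(133-148) (median difference -0.07), and likewise 4 and 6 in set 1 (median -0.02). Of the 9 fibroblast or pericyte markers, 5 lay above Fc and 4 below it in set 2 (median difference 0.17), and 0 above and 9 below in set 1 (median -0.38). The part of those cells in the Timp3 values was not tested. All adjusted p-values of the 9 genes in limma were 1 after rounding. With the set as a block, Mmp13 had an unadjusted p of 0.0190 (adjusted p in limma 0.836). The comparisons of the fragments share the Fc arrays.

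**Figure D4:**
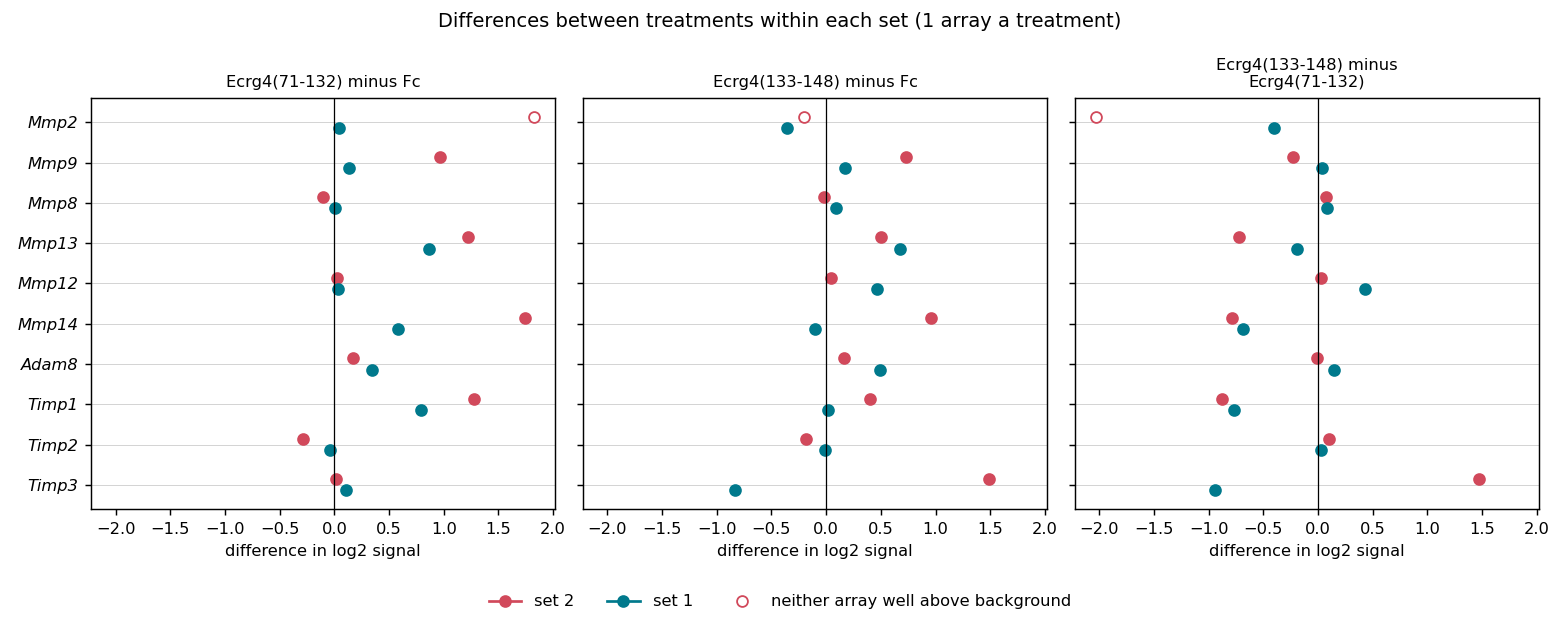
Difference in log2 signal within each set, on the x axis, for Ecrg4(71-132) minus Fc, Ecrg4(133-148) minus Fc and Ecrg4(133-148) minus Ecrg4(71-132), for each gene, with a point for set 2 and a point for set 1 (open where neither array was well above background). Mmp13, Timp1 and Mmp14 lay above 0 in both sets with Ecrg4(71-132), and Timp3 with Ecrg4(133-148) lay on opposite sides of 0.

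The fragments, which are different stretches of Ecrg4 on the same carrier at the same dose and time, were compared with each other directly. Ecrg4(133-148) was lower than Ecrg4(71-132) in both sets for Timp1, Mmp14 and Mmp13, higher in both for Mmp12, Mmp8 and Timp2 (by 0.23, 0.08 and 0.07 on average), and no difference passed the test. This was 1 pair of compounds, with p-values adjusted over all 19117 genes, of which limma called 0 (0%) and 141, or 0.738%, had an unadjusted p under 0.05. Timp1 differed by -0.88 in set 2 and -0.77 in set 1, a mean of -0.82 (95% interval -2.19 to 0.55). Mmp14 differed by -0.79 in set 2 and -0.69 in set 1, a mean of -0.74 (95% interval -2.40 to 0.92). Mmp13 differed by -0.72 in set 2 and -0.20 in set 1, a mean of -0.46 (95% interval -3.00 to 2.08). These intervals come from the fit without the set and hold differences of either sign. With the set as a block, the SE of the Timp1 difference was 0.17 (unadjusted p 0.00539) and that of Mmp13 0.17 (unadjusted p 0.0447), and both had an adjusted p of 0.715 in limma. A like response to the fragments was not shown either. Over all genes, 33.5% were higher and 23.7% lower in both sets. On the second probes of Mmp12 and Timp2, Ecrg4(133-148) was lower than Ecrg4(71-132) in set 2 and higher in set 1.

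The carrier alone was set against PBS. The differences of the 9 genes, Fc minus PBS, ran from -0.25 for Timp1 to 0.24 for Mmp14. Fc was higher than PBS in both sets for 2 of the 9 genes, against 39.6% of all genes, and lower for 3, against 16.7%. Limma called 0 of 19117 genes (0%), and 51, or 0.267%, passed an unadjusted 0.05, none of them among the 9. For Timp1, Fc was below PBS in both sets, so that the Ecrg4(133-148) array lay above Fc and below PBS in set 1.

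Other genes of extracellular proteolysis were read from lists that were named for their function. One list held genes that activate or dock metalloproteinases, including the plasminogen system. Of its 13 genes tested, 10 were higher with Ecrg4(71-132) than with Fc in both sets, against 28.5% of all genes, and 2 lower, against 36.4%. The median difference was 0.48, against -0.02 over all genes. With Ecrg4(133-148), 6 were higher, against 28.5%, and 0 lower, against 30.6%. Serpinb2, an inhibitor of plasminogen activators, stood at 5.03, 4.09, 1.45 and 1.21 with Ecrg4(71-132), Ecrg4(133-148), Fc and PBS in set 2, and at 4.16, 3.47, 1.89 and 1.25 in set 1. It was above both controls with both fragments in both sets. Its pooled difference of 2.74 was the only one among these lists that passed (adjusted p in limma 0.0479). The urokinase gene Plau was lowest with Ecrg4(71-132) in both sets, at -0.48 relative to Fc.

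The direct comparison of the fragments in that list gave lower values with Ecrg4(133-148) for 8 of 13 genes in both sets, against 23.7% of all genes. For 2 they were higher, against 33.5%. Lcn2, a lipocalin whose human form binds MMP9, differed most, by -1.56. Its signal was 1.42, -0.28, -2.31 and -2.32 with Ecrg4(71-132), Ecrg4(133-148), Fc and PBS in set 2, against 1.45, 0.02, 0.14 and 0.75 in set 1. Of the other metalloproteinases, Timp4 and the membrane inhibitor Reck, 6 of 16 on the array could be tested. Mmp3, the stromelysin, was 1.66 above Fc with Ecrg4(71-132) and 1.01 above it with Ecrg4(133-148), but it was well above background on 1 of 4 set 2 arrays and lay below Fc with Ecrg4(133-148) in set 1. Adamts4, an aggrecan-cutting enzyme, was 1.76 above Fc with Ecrg4(71-132) and 0.72 with Ecrg4(133-148), and it too was well above background on 1 of 4 set 2 arrays. On the set 2 Fc array neither gene was well above background, with Mmp3 at -5.75 and Adamts4 at -5.89. Mmp3 and Adamts4 each entered this test through a fragment group alone, which favoured a value above Fc. The cathepsins, lysosomal proteases, and their inhibitor Cst3, 7 genes in all, differed from Fc by -0.08 (Cst3) to 0.21 (Ctsk) with Ecrg4(71-132). None of these list members was called against Fc.

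Between the sets these lists differed in their directions. All 7 genes of the cathepsin list were called higher in set 2, with a median of 0.38 and values between 0.26 for Ctsb and 2.27 for Ctsk, against 34.9% of all genes. Of 7 genes tested in the list of other metalloproteinases, Timp4 and Reck, 1 was called higher (Mmp19, 1.68) and 4 lower, with Mmp11 at -2.85. Over all genes, 34.9% were called higher and 27.3% lower. Mmp3, Mmp10, Mmp11, Mmp23 and Timp4 entered this test through set 1 alone, which favoured a lower value in set 2. Mmp11 was not well above background on any set 2 array, which makes it at least 4.84-fold lower there. In the activation list 5 of 14 were called higher, led by the urokinase receptor Plaur at 1.19, and 3 lower, against the same shares. The tissue plasminogen activator Plat, which entered through set 1 alone, was at least 15.3-fold lower in set 2.

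Within the sets some of the genes varied together over the 8 arrays. After each set's mean was subtracted, Mmp14 correlated with Mmp9 at 0.93, with Timp1 at 0.87 and with Mmp13 at 0.82, and Mmp9 with Timp2 at -0.92. The Timp2 value is of its brightest probe, and no correlation was computed for its second probe. Among 11570 named genes well above background on the 8 arrays, the patterns closest to Mmp14 were Slc25a37, Socs3 and Irak3 at Pearson correlations of 0.997, 0.996 and 0.995. Those closest to Mmp13 were Map2k1, Psmd14 and Il1rn at 0.995, 0.995 and 0.994. Those closest to Mmp9 were Agap1, Bcl2l2 and Aebp2 at 0.993, 0.987 and 0.985. With 8 arrays that share their sets and treatments, such values describe these arrays and carry no p.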

How the data were processed

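RNA of 8 samples was measured on 1-colour Agilent arrays. The deposited scanner files give each spot's intensity after background subtraction, unlogged. The submitters' processing notes name Agilent Feature Extraction 11.0.1.1. The deposited table of log2 values follows log2 of those intensities with a correlation of 1 per array and 1 constant per array; how it was chosen is not given in the sources. From the intensities, log2 signal minus each array's 75th percentile over non-control spots was computed. Outlying spots were left out and spots of a probe averaged. RefSeq accessions (GRCm38.p6) named 28020 of 55681 probes, the other 27661 kept their own names, and 104 had no usable spot on some array. Probes well above background on all arrays of at least 1 group of a fit entered it, with the brightest probe for each gene.

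Fits used limma 3.58.1 (R 4.3.3) over all genes kept, with Benjamini-Hochberg adjustment within each comparison and a threshold of 0.05. The fits were 4 treatment means (4 residual degrees of freedom, no set), treatments plus set (3), and fragment or control arrays within each set (4). The set numbers pair the samples: across genes, set differences of any 2 treatments (6 pairs) had correlations of 0.783 to 0.862. A probe not well above background in a group has only a bound ("at least"). It sets the brighter group's mean against a floor, which on each dim array is the lowest signal well above background or, if higher, the signal of the probe itself. The members, the lists and the tests were chosen with earlier results of these data known. The text names every member, the extreme genes of each list, the 3 closest patterns for Mmp14, Mmp13 and Mmp9 (those of the other members are not reported here), and some markers and list genes chosen after their values were seen. The alternatives were normexp with offset 50 run on median spot signals, other scaling, filters, probe rule, moderation, the deposited log2 table, the replicate block and each array left out. The number of arrays limits the precision.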

Additional observations from a re-analysis of the deposited data

Results flagged for a closer look

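Mmp8, a collagenase, lay below both control arrays with both fragments in set 2 and above both control arrays with both fragments in set 1. The response to the fragments was -0.09 in set 2 and 0.10 in set 1, so that it differed by -0.20 between the sets on the log2 scale. By the test of that difference in limma this did not pass (adjusted p 0.610).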

How the results depend on the processing

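Leaving out an array changes which sets enter a treatment mean, and differences between treatments then turned their sign for the genes listed last. No member passed the test in a comparison of single treatments under any alternative. With the set as a replicate block, 0 genes were called in each of these 4 comparisons; the block moved no member across the threshold. The count of genes called for both fragments against both controls was 74, and became 0 with no replicate block, 0 with normexp background, 16 without the filter, 1 with genes well above background on all 8 arrays and 281 with trended robust moderation, where Mmp9 (adjusted p in limma 0.0462) and Adam8 (0.0475) passed. The count for the difference in response between sets was 37, and became 1, 23, 1 and 19 under normexp, no filter, the 8-array filter and trended robust moderation. Between sets it was 12158, and 18666 with no filter. With 1 array left out the counts ran from 136 to 3943 for the fragments and from 109 to 654 for their difference between sets. A fit without the set was not possible for the last comparisons, where the set is the term. Why the counts moved was not tested.

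In the comparison of sets, normexp gave Mmp9 an adjusted p in limma of 0.0429 and Adam8 0.0514, median scaling gave Mmp9 0.0228, no filter gave Mmp14 0.0502 and Adam8 0.0778, and leaving out the treatment block, an alternative added after seeing the data, gave Mmp14 0.103 and Adam8 0.0877. The other 7 genes passed in this comparison under every alternative, except Mmp2 under the 8-array filter, which it fails.

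Some members that were not called turned their sign. With normexp these were Timp3 (-0.031 for Ecrg4(71-132) against Fc, -0.087 for Ecrg4(133-148) against Fc, -0.056 between fragments and -0.14 pooled), and pooled Mmp2 (-0.013) and Mmp8 (-0.015). With quantile scaling they were Mmp12 for Ecrg4(71-132) (-0.022), pooled Mmp8 (-0.040), and, for Fc against PBS, Mmp13 (-0.050), Mmp8 (-0.021), Timp2 (-0.0059) and Adam8 (-0.018). With median scaling it was Mmp8 for Ecrg4(71-132) (0.025). With the mean of probes they were Mmp12 (-0.11 for Ecrg4(71-132), -0.011 pooled, 0.063 for the difference in response) and Timp2 (0.029 for Ecrg4(71-132), 0.016 for Ecrg4(133-148), -0.013 between fragments, -0.0094 for Fc against PBS and 0.018 pooled).

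With 1 array left out, values whose sign turned ran over these ranges. For Ecrg4(71-132) against Fc, the values ran as Mmp12 -2.06 to 2.11, Mmp8 -0.93 to 0.84, Timp2 -0.54 to 0.22, Timp3 -2.52 to 2.64. For Ecrg4(133-148) against Fc, the values ran as Mmp12 -1.83 to 2.34, Mmp13 -0.15 to 1.33, Mmp14 -0.32 to 1.17, Mmp8 -0.85 to 0.92, Timp1 -0.30 to 0.72, Timp2 -0.44 to 0.25, Timp3 -2.21 to 2.86. Between the fragments, the values ran as Mmp9 -0.22 to 0.030, Mmp12 -1.85 to 2.31, Mmp13 -1.37 to 0.46, Mmp8 -0.75 to 0.91, Timp2 -0.31 to 0.45, Timp3 -2.32 to 2.84, Adam8 -0.038 to 0.18. For Fc against PBS, the values ran as Mmp9 -0.35 to 0.46, Mmp12 -2.18 to 1.997, Mmp13 -0.94 to 0.94, Mmp14 -0.50 to 0.99, Mmp8 -0.95 to 0.99, Timp1 -0.58 to 0.066, Timp2 -0.22 to 0.31, Timp3 -2.91 to 2.47, Adam8 -0.23 to 0.32. For both fragments against both controls, the values ran as Mmp12 -0.013 to 0.20, Mmp2 -0.17 to 0.85, Mmp8 -0.022 to 0.031, Timp3 -0.29 to 0.45. For the difference in response between sets, the values ran as Mmp12 -0.42 to 0.019, Mmp13 -0.46 to 0.25.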
